A study of Mus musculus with 2 samples.

Results

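Transcripts of the receptors that bind the constant (Fc) part of IgG were measured in the leukocytes of the mouse adrenal gland. The genes were chosen by name, as 6 of the 32285 genes counted: Fcgr1, Fcgr3 and Fcgr4, which encode the activating Fc gamma receptors of the mouse, Fcer1g, their signalling chain, Fcgr2b, the inhibitory receptor, and Fcgrt, the heavy chain of the neonatal Fc receptor (FcRn). All 6 had UMIs (unique molecular identifiers, each counted as 1 captured transcript) in both libraries. Live CD45+ cells, sorted with DAPI as the viability dye, came from adrenal glands of C57BL/6 mice aged 7 weeks, and their RNA was counted cell by cell in droplets (10x). There was 1 female and 1 male library, and the number of animals behind each was not stated. No gene was manipulated and no agent was given. Differences between the libraries therefore could not be set against the spread between animals, and sex cannot be told apart from other differences between the libraries.

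Activating Fc gamma receptors have little signalling capacity of their own. They assemble with the common gamma chain encoded by Fcer1g, whose activation motif recruits the kinase Syk after immune complexes crosslink the receptors. Fcgr2b carries an inhibitory motif and restrains the same signals in myeloid cells, and in B cells it dampens the antigen receptor. FcRn works inside the cell, where it pairs with beta-2-microglobulin and returns IgG and albumin from endosomes to the circulation. The protein made from Fcgr1, CD64, is also a surface marker by which tissue macrophages are commonly gated in flow cytometry. The study required CD64 of both macrophages and monocytes, and told the macrophages apart by MerTK.

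The genes lie at 3 loci in the GRCm38 assembly (GENCODE M21 annotation). Fcgr2b (chr1:170958617-170976547, minus strand), Fcgr4 (chr1:171018920-171029761, plus strand), Fcgr3 (chr1:171051174-171064935, minus strand) and Fcer1g (chr1:171229572-171234365, minus strand) share a stretch of chromosome 1. Fcgr1 lies apart on chromosome 3 (chr3:96282909-96293969, minus strand) and Fcgrt on chromosome 7 (chr7:45092990-45103851, minus strand). The receptors are related in sequence, so the 3′ ends from which the reads came were compared with all other annotated transcripts. Of the 546 windows of 55 bases, the length of the read, in the last 600 bases of each gene's transcript, 0 occurred in another gene. The annotation placed Mir6546 inside Fcgr3 and Gm26110 inside Fcgr4 on the same strand, and Gm38204 and Gm45669 opposite Fcgr2b and Fcgrt.

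The sequences just upstream are shown for the 3 activating receptor genes, the only ones of the set with the motif described next. All of these genes differed between macrophage subsets, and so did Fcer1g, Fcgr2b and Fcgrt, whose sequences are not shown. GAGGAA is the purine-rich core recognised by the myeloid factor PU.1, and was searched on both strands in the 250 bases before each RefSeq start. It occurred once per start before Fcgr1, Fcgr3 and Fcgr4, beginning 55, 6 and 22 bases upstream, and 0 times before Fcer1g, Fcgr2b and Fcgrt. Of all 32851 RefSeq promoter windows of this length, 23.3% held it, so its presence is a description of these letters and no evidence of binding. The 100 bases before each start are printed 5′ to 3′ on the strand of the gene, from RefSeq on GRCm38.p6, and capitals mark the match, which reads TTCCTC on that strand. For Fcgr3 the upstream one of 2 RefSeq starts is shown, which lies inside the longer GENCODE gene.
Fcgr1, chr3:96293970-96294069, minus strand: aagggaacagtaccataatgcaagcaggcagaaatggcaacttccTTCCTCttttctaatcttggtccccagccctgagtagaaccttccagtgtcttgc
Fcgr3, chr1:171059404-171059503, minus strand: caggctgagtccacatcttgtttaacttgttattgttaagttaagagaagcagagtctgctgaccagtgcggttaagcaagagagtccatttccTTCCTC
Fcgr4, chr1:171018826-171018925, plus strand: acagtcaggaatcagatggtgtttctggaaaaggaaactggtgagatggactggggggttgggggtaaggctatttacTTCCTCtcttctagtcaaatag

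After filtering, 3694 female and 2450 male cells were kept at median depths of 3492 and 3002 UMIs, and Ptprc, the gene of CD45, had a UMI in 83.4% and 76.1% of them. Each cell was placed in a class by marker genes that excluded the 6 genes and their pathway, and 92.4% and 92.5% of the cells received a class. Adrenal gland macrophages (AGMs) numbered 863 and 928. They were split into 77 and 139 Lyve1-high AGMs (markers Lyve1, Folr2, Fcna, Cbr2 and others), 87 and 107 Aldh1a2-high AGMs (Aldh1a2, Retnla, Fn1, Ear2 and others) and 699 and 682 other AGMs. The median Lyve1-high AGM held 8 of the 10 macrophage markers in both libraries and the median other AGM 8 and 7, whereas the median Aldh1a2-high AGM held only 3 and 4, so the macrophage label of the Aldh1a2-high cells rests on fewer genes. Classical monocytes numbered 170 and 74, nonclassical monocytes 77 and 65, conventional dendritic cells of type 1 (cDC1) 36 and 31 and of type 2 (cDC2) 45 and 35, neutrophils 47 and 50, B cells 510 and 264, NK cells 816 and 334, and mast cells 20 and 7. T cells (721 and 399), which are held to lack Fc gamma receptors, served as the background from free RNA, at median depths of 3937 and 3763 UMIs. For Fcer1g, of which B cells held less than T cells, the T cell level is not read as free RNA alone. The same holds for Fcgrt, of which NK cells held less than T cells in both libraries. Only 2 cell barcodes occurred in both libraries.

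Levels are given as CPM, the UMIs of a gene summed over the cells of a class and scaled to the customary common total, first for the female and then for the male library. Intervals cover 95% and counting error only. Reads came from transcript ends and were not divided by length, so a level is compared between classes for 1 gene and not between genes. Levels in a class mix how many cells express a gene and how much each holds. For shares of cells with a UMI, 1000 UMIs were drawn from each cell so that depth was equal, and cells with fewer were left out. A gene was called between classes when it differed at least 2-fold in the same direction in both libraries, and the share of all genes called in the same way, among those with at least 50 UMIs in either class in both libraries, is given as the background.

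Fcgr1, the high-affinity receptor for monomeric IgG, had its highest level in other AGMs, at 207 CPM (95% interval 190.2 to 224) and 229 CPM (209.9 to 249). In the female library other AGMs were not separated from classical monocytes beyond counting error, at 1.22-fold (0.998 to 1.502). In the male library they stood above them, at 2.247-fold (1.572 to 3.318). Lyve1-high AGMs held 138 and 149 CPM. Classical monocytes held 169 and 102 CPM, and their order relative to Lyve1-high AGMs differed between the libraries, at ratios of Lyve1-high AGMs to classical monocytes (0.817, 0.528 to 1.23, and 1.46, 0.918 to 2.35) that included equal levels. Summed over the cells of a class, Fcgr1 was thus highest in other AGMs, Lyve1-high AGMs and classical monocytes. Aldh1a2-high AGMs stood far below, at 21.7 CPM (7 UMIs) and 23.5 CPM (11 UMIs), in the range of nonclassical monocytes at 22.0 and 34.5 CPM (4 and 6 UMIs). Dendritic cells held 1 UMI (cDC1) and 2 UMIs (cDC2) in the female library and 0 in the male. There 3 UMIs would have been 16.1 and 16.0 CPM, and the 95% intervals reached 19.8 and 19.7 CPM. Neutrophils held 0 UMIs in both libraries, where 3 UMIs would have been 36.2 and 33.7 CPM and the intervals reached 44.5 and 41.5 CPM. T cells held 0.926 and 2.47 CPM, and the B cell (0.577 and 4.31 CPM) and NK cell (1.54 and 1.12 CPM) levels were no higher than this background beyond counting error. Among 1000 UMIs, 18.9% and 17.0% of other AGMs had an Fcgr1 UMI, against 0% and 0.256% of T cells. Without the draw the shares were 44.8% and 41.6% of other AGMs and 0.416% and 1.003% of T cells.

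Fcgr3, the low-affinity activating receptor that mouse NK cells also carry, was spread over more classes. Other AGMs held 526 CPM (499 to 553) and 427 CPM (401 to 454), and Lyve1-high AGMs 535 (442 to 642) and 342 (282 to 410.3). In the female library these subsets could not be ordered beyond counting error. Classical monocytes held 277 and 207 CPM, Aldh1a2-high AGMs 199 and 228, neutrophils 193 (16 UMIs) and 269.8 (24 UMIs), and nonclassical monocytes 116 and 86.3. The neutrophil level (110.4 to 314 and 173 to 401) could not be told from that of classical monocytes or Aldh1a2-high AGMs in either library, the intervals of all these ratios including 1. Among dendritic cells, cDC2 held 77.9 and 144 CPM and cDC1 29.1 and 16.1 (6 and 3 UMIs). NK cells held 42.2 CPM (35.95 to 49.1) and 35.9 (27.6 to 45.8), a level 4.14-fold and 3.88-fold that of T cells (10.2 and 9.25 CPM). The NK cell share with an Fcgr3 UMI was 2.98% and 2.10% among 1000 UMIs (15.8% and 16.5% without the draw), against 1.26% and 1.02% of T cells (3.75% and 3.51% without it), at a median of 4169 and 4876 UMIs per NK cell. Female mast cells held 14 Fcgr3 UMIs in 7 of 20 cells, or 263 CPM (144 to 442), and the 7 male mast cells held 1. The female mast cells' 14 UMIs were uneven, with 85.7% of them in 5 cells. B cells, at 4.61 and 7.18 CPM, did not exceed T cells.

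Fcgr4, an activating receptor of intermediate affinity known from nonclassical monocytes and macrophages, had its highest levels in other AGMs, at 347 CPM (326 to 369) and 351 CPM (328 to 376). Nonclassical monocytes followed at 259 CPM (190 to 344) and 201.4 CPM (140.3 to 280.1), with other AGMs 1.34-fold (1.001 to 1.84) and 1.74-fold (1.24 to 2.52) above them. Lyve1-high AGMs held 217 CPM (159 to 288) in the female library and 71.3 CPM (45.7 to 106) in the male. In the female library they were not separated from nonclassical monocytes, at 0.8385-fold (0.548 to 1.28). Neutrophils held 96.6 and 101.2 CPM (8 and 9 UMIs), classical monocytes 74.4 and 41.4, and Aldh1a2-high AGMs 21.7 and 29.9 (7 and 14 UMIs). The order of monocyte classes for Fcgr4 was thus the reverse of that for Fcgr1. Dendritic cells held 0 to 5 Fcgr4 UMIs per class and library. B cells (5.77 and 5.74 CPM) and NK cells (2.57 and 2.24 CPM) stood at the T cell level of 3.39 and 3.08 CPM within counting error, and mast cells held 0 UMIs.

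**Figure D1:**
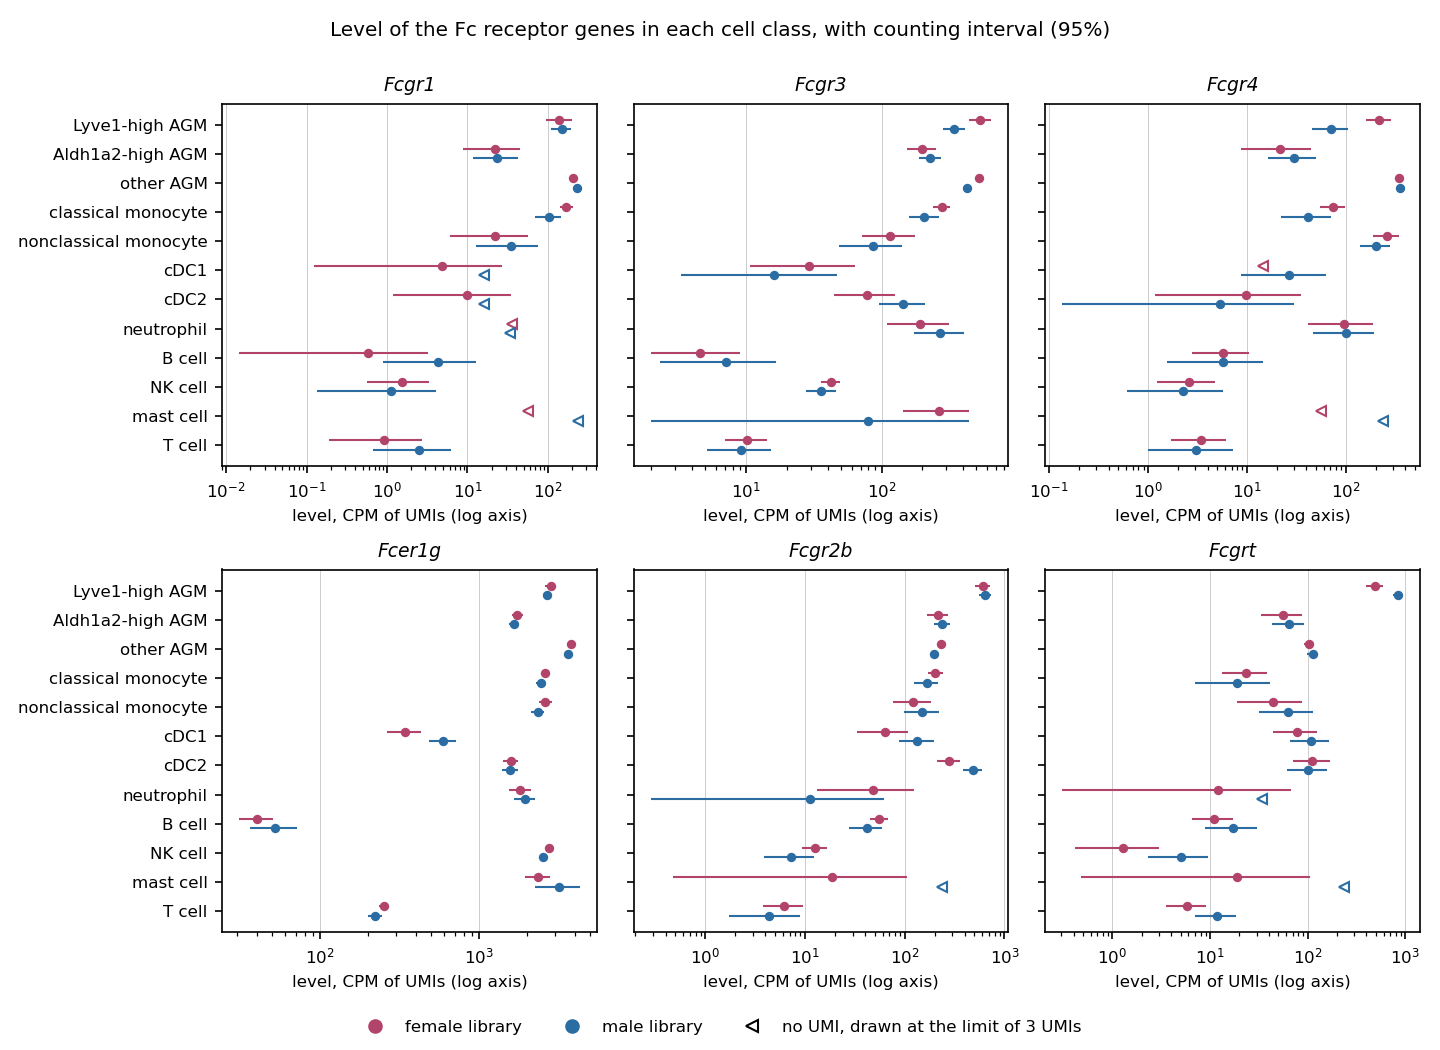
Level of each gene (CPM of UMIs, log axis, 1 panel per gene) in 11 cell classes and T cells, for the female (red) and the male library (blue); lines are exact Poisson 95% intervals for counting error, and open triangles mark classes with no UMI at the limit of 3 UMIs. Fcgr1 and Fcgr4 are highest in other AGMs, although female Fcgr1 is not separated there from classical monocytes. Fcgr2b and Fcgrt are highest in Lyve1-high AGMs. Fcer1g lies between 1571 and 3770 CPM in NK cells, mast cells and every myeloid class shown except cDC1.

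The signalling chain Fcer1g was found far beyond the receptors it serves. Other AGMs held 3770 CPM (3699 to 3842) and 3645 CPM (3568 to 3722), Lyve1-high AGMs 2814 and 2687, nonclassical monocytes 2613 and 2330, and classical monocytes 2592 and 2447. NK cells, which couple other receptors to the same chain, held 2765 CPM (2713 to 2817) and 2531 (2458 to 2606). Mast cells held 2331 CPM (1938 to 2779) and 3157 CPM (2255 to 4299), in a class where the chain serves the IgE receptor. Macrophage markers summed to 1447 and 8129 CPM in mast cells, with Apoe giving 93.5% and 56.3% of these UMIs and Mertk and Adgre1 among the markers at 0 in both libraries. The level in classical monocytes was 0.938-fold (0.891 to 0.986) and 0.967-fold (0.894 to 1.04) that of NK cells, whose Fcgr1 and Fcgr4 were at background. Lower down, neutrophils held 1811 and 1944 CPM, Aldh1a2-high AGMs 1740 and 1653, and cDC2 1582 and 1571. Among these 3 classes 1 pair differed beyond counting error, cDC2 being at 0.808-fold (0.667 to 0.980) of neutrophils in the male library. cDC1 held 339 and 589.8 CPM. T cells held 252 and 221 CPM, with a UMI in 13.1% and 11.8% of cells among 1000 UMIs, and B cells only 39.8 and 51.7 CPM, which was 0.158-fold and 0.234-fold the T cell level. Under the 1.2% mitochondrial ceiling the male ratio of B to T cells turned to 1.515 (0.0257 to 29.1), on 1 UMI in B cells. Of the 4086 genes tested between these classes, 11.9% were called lower in B cells and 4.85% higher, and Fcer1g was the only 1 of the 6 with enough UMIs for that count.

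Fcgr2b, the inhibitory receptor, had a different distribution. Lyve1-high AGMs held 604 CPM (505 to 717) and 645 CPM (562 to 737), and the next leukocyte class, cDC2, was below them in both libraries. cDC2 held 278 CPM (210.2 to 359.5) and 481 CPM (387 to 591), and Lyve1-high AGMs were 2.18-fold (1.58 to 3.03) and 1.34-fold (1.04 to 1.73) above it. Other AGMs held 231 and 198 CPM, Aldh1a2-high AGMs 214 and 237, classical monocytes 203 and 166, and nonclassical monocytes 121 and 149.6. Of these, other AGMs, Aldh1a2-high AGMs and classical monocytes were not separated beyond counting error, except that Aldh1a2-high AGMs were 1.43-fold (1.02 to 2.03) above classical monocytes in the male library. cDC1 held 63.0 and 134 CPM (13 and 25 UMIs). B cells held 55.4 CPM (44.8 to 67.6) and 41.6 CPM (27.9 to 59.8), 8.97-fold (5.50 to 15.3) and 9.65-fold (4.14 to 26.1) the T cell level, and it was the only receptor of the 6 above the T cell level in B cells in both libraries beyond counting error. An Fcgr2b UMI was found in 5.66% and 4.00% of B cells among 1000 UMIs and in 0.559% and 0.256% of T cells. Without the draw the shares were 16.1% and 10.2% of B cells, at a median of 2226 and 1762 UMIs, and 1.80% and 1.75% of the deeper T cells. NK cells held 12.6 and 7.29 CPM against 6.17 and 4.32 in T cells. Neutrophils held 4 and 1 UMIs and mast cells 1 and 0.

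Fcgrt was concentrated in the same macrophage subset. Lyve1-high AGMs held 489 CPM (400.3 to 591) and 835 CPM (740.3 to 939), with a UMI in 42.6% and 53.8% of cells among 1000 UMIs and in 67.5% and 77.0% without the draw. The next leukocyte class held 112 CPM in either library. Other AGMs held 103 and 112 CPM, cDC2 112 and 102, and cDC1 77.5 and 107, and these 3 classes could not be ordered beyond counting error in either library. Aldh1a2-high AGMs held 55.8 and 64.0 CPM, nonclassical monocytes 44.0 and 63.3 (8 and 11 UMIs) and classical monocytes 23.4 and 19.1 (16 and 6 UMIs). B cells (10.96 and 17.2 CPM) and NK cells (1.29 and 5.04 CPM) were near or below the T cell level of 5.86 and 11.7 CPM. Neutrophils held 1 and 0 Fcgrt UMIs.

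The macrophage subsets were compared with other AGMs within each library, to see which receptors set them apart. In Lyve1-high AGMs, Fcgr2b was 2.62-fold (2.16 to 3.17) and 3.25-fold (2.76 to 3.83) and Fcgrt 4.74-fold (3.76 to 5.93) and 7.45-fold (6.28 to 8.85) the level of other AGMs. Under the 1.2% mitochondrial ceiling, with 3 female and 0 male Lyve1-high AGMs left, the female ratios were 1.85 (0.554 to 4.93, 5 UMIs) for Fcgr2b, short of 2-fold, and 2.78 (0.914 to 7.18, 6 UMIs) for Fcgrt, both with intervals that included equal levels. These 2 of the 6 genes were called higher, where 4.71% of 5367 genes were, and 0 were called lower, where 3.89% were. Fcgr1 was at 0.670-fold (0.448 to 0.967) and 0.649-fold (0.476 to 0.869), and Fcer1g at 0.746-fold (0.687 to 0.810) and 0.737-fold (0.688 to 0.789). Fcgr3 was at 1.02-fold (0.835 to 1.23) and 0.801-fold (0.655 to 0.972). The subset thus had less of the activating chain and of Fcgr1, by under 2-fold, and more of the inhibitory receptor and of Fcgrt. Lyve1-high AGMs were also shallower, at median depths of 2224 and 1932 UMIs where other AGMs had 3672 and 2610, and held more mitochondrial UMIs, at a median of 5.91% and 6.17% against 3.03% and 2.86%. The part of depth and RNA quality in these ratios was not tested beyond the stricter filters given with the processing. The 36 and 35 endothelial cells of the sort held 131-fold (78.8 to 227) and 169.5-fold (78.0 to 437) the Fcgr2b of T cells, 1 of the 2 genes with enough UMIs called higher, where 9.2% of 4009 genes were and 13.8% were called lower. The 6 endothelial markers summed to 125 and 104 CPM in Lyve1-high AGMs against 51.8 and 66.0 in other AGMs and 11320 and 10350 CPM in the endothelial cells, with Kdr, Emcn and Egfl7 at 0 UMIs in the female subset and Emcn at 0 in the male. Markers of cDC2, another class with Fcgr2b, summed to 1670 and 2339 CPM in Lyve1-high AGMs, 129 and 323 CPM in other AGMs and 3140 and 3697 CPM in cDC2. Of the 6 cDC2 markers, Mgl2 gave 71.3% and 62.0% of these UMIs in Lyve1-high AGMs, and Flt3 and Ccl17 were at 0 in both libraries. Neutrophil markers summed to 299.8 and 553 CPM against 55.6 and 55.4 CPM in other AGMs, with Mmp9 giving 70.8% and 84.4% of them in Lyve1-high AGMs. The part of these lists in the Fcgr2b and Fcgrt ratios was not tested.

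Fcgr4 in Lyve1-high AGMs depended on how the subset was drawn. Its ratio to other AGMs was 0.625 (0.456 to 0.838) in the female and 0.203 (0.130 to 0.305) in the male library. Of the female subset's 47 Fcgr4 UMIs, 55.3% lay in 5 of the 77 cells, and of the male subset's 24, 79.2% in 5 of 139. Requiring 1 more marker gave a ratio of 0.221 in the female and 0.113 in the male library, and classes given to whole clusters gave 0.129 in the female library. Under a mitochondrial ceiling of 5% the female ratio was 0.939. The last of these has an interval of 0.657 to 1.31, which includes equal levels. With the 3 female cells left under the 1.2% ceiling, Fcgr4 had 0 UMIs.

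The genes called in Aldh1a2-high against other AGMs were Fcgr4, Fcgr1 and Fcer1g. None of these was called in Lyve1-high AGMs, although all 3 were lower there too. Fcgr4 was at 0.0626-fold (0.0251 to 0.130) and 0.0851-fold (0.0463 to 0.144), Fcgr1 at 0.105-fold (0.0421 to 0.218) and 0.102-fold (0.0509 to 0.185), and Fcer1g at 0.462-fold (0.423 to 0.503) and 0.453-fold (0.421 to 0.488) of their level in other AGMs. These 3 of the 6 genes were called lower, where 10.3% of 5381 genes were, and 0 were called higher, where 5.20% were. The female Fcgr1 ratio rested on 7 UMIs in 5 of the 87 cells. With classes given to clusters it was 0.0196 (4.95e-04 to 0.110, 1 UMI). Fcgr3 was at 0.378-fold (0.289 to 0.485) and 0.535-fold (0.434 to 0.653) and missed the call in the male library. Fcgrt was at 0.541-fold and 0.571-fold. Fcgr2b was at 0.928-fold (0.714 to 1.19) and 1.19-fold (0.962 to 1.47), the only 1 of the 6 whose intervals included equal levels in both libraries. As these cells also held fewer macrophage markers, whose summed level was 6235 and 6711 CPM against 52530 and 40250 CPM in other AGMs, their low Fcgr1 and Fcgr4 moved together with the summed macrophage list. Apoe gave 64.6% and 53.6% of the macrophage marker UMIs in other AGMs and 34.4% and 40.3% in Aldh1a2-high AGMs. Classical monocyte markers were higher in them, at 1616 and 1518 CPM against 610.0 and 428 CPM, with Ccr2 giving 82.3% and 93.7% of these UMIs. B cell markers summed to 11090 CPM in the female and 164 CPM in the male subset, against 1182 and 320.1 CPM in other AGMs. In the female subset 98.5% of those UMIs lay in 5 cells and 99.0% were of Ighm, the immunoglobulin heavy chain, and the median cell held 0 of the 9 B cell markers. The part of these lists in the ratios was not tested. Set directly against Aldh1a2-high AGMs, Lyve1-high AGMs held 2.82-fold and 2.73-fold more Fcgr2b and 8.76-fold and 13.1-fold more Fcgrt, 2 of the 4 genes with enough UMIs, where 9.66% of 963 genes were called higher, and 0 were called lower, where 7.58% were. Fcgr3 was 2.70-fold (1.97 to 3.72) and 1.498-fold (1.14 to 1.97) higher. Among the genes with too few UMIs for that count, Fcgr1 was 6.37-fold (2.74 to 17.2) and 6.34-fold (3.25 to 13.5) and Fcgr4 9.98-fold (4.48 to 26.2) and 2.39-fold (1.19 to 5.00) higher.

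**Figure D2:**
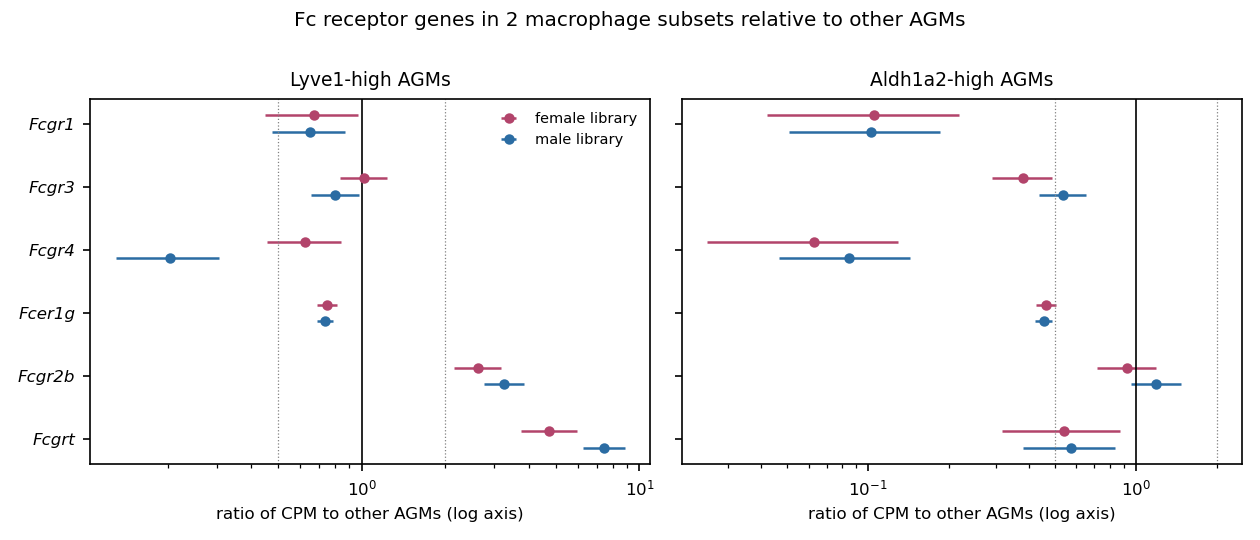
Ratio of CPM in Lyve1-high (left) and Aldh1a2-high AGMs (right) to other AGMs (log axes, which differ between panels), with exact conditional binomial 95% intervals for counting error; the solid line marks equal levels and the dotted lines 2-fold. In the left panel Fcgr2b and Fcgrt lie right of the 2-fold line in both libraries, and in the right panel Fcgr1 and Fcgr4 lie near or below 0.1.

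The study divided AGMs by MHC class II, so members were also compared between MHC class II low (at most 10 UMIs of Cd74, H2-Eb1, H2-Aa and H2-Ab1 per 1000) and high cells among other AGMs. Low cells numbered 170 of 699 in the female and 37 of 682 in the male library. None of the 6 genes was called, where 0.376% of 4788 genes were called higher and 0.439% lower. Fcgr1 was lower in low cells, at 163 against 221 CPM in the female library and 133 (13 UMIs) against 233 CPM in the male, or 0.739-fold (0.599 to 0.906) and 0.569-fold (0.301 to 0.982). Under the mitochondrial ceiling of 1.2%, which left 14 and 2 low cells, the direction turned, at 1.56-fold (0.673 to 3.81) and 2.59-fold (0.672 to 7.21). Fcer1g was at 0.884-fold (0.845 to 0.925) and 0.762-fold (0.673 to 0.859). Fcgr3 was 1.34-fold (1.201 to 1.498) higher in female low cells, at 649 against 484 CPM, and at 1.03-fold (0.740 to 1.40) in the male, where the interval from 37 cells includes a difference of that size. Fcgr4 was at 1.03-fold and 1.11-fold, and Fcgr2b at 1.18-fold (0.991 to 1.40) and 1.58-fold (1.05 to 2.29). Fcgrt lay on opposite sides of equal levels, at 0.819-fold (0.611 to 1.08) and 1.49-fold (0.836 to 2.46), with intervals that included them. Male low cells were shallow, their median depth being 1382 UMIs where male high cells had 2689, whereas female low cells had 3917 and high cells 3526.

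The monocyte classes differed in which activating receptor they held. Nonclassical monocytes held 3.47-fold (2.29 to 5.27) and 4.87-fold (2.51 to 10.0) the Fcgr4 of classical monocytes, and only 0.130-fold (0.0348 to 0.342) and 0.339-fold (0.116 to 0.822) of their Fcgr1. With classes given to clusters the female Fcgr4 ratio was 5.83 (4.04 to 8.39). Under the 1.2% mitochondrial ceiling the male one was 2.02 (0.327 to 9.46, 3 UMIs), which includes equal levels. Fcgr3 was at 0.417-fold in both libraries (0.252 to 0.655 and 0.221 to 0.740). Of the 3 genes with at least 50 UMIs in both libraries, Fcgr3 was called lower and none higher, where 4.66% of 902 genes were called in each direction, and Fcgr1 and Fcgr4 had too few male UMIs to count there. The Fcer1g difference was within counting error, at 1.01-fold (0.909 to 1.12) and 0.952-fold (0.842 to 1.07). Among the activating UMIs of nonclassical monocytes, Fcgr4 made up 65.3% and 62.5%, against 14.3% and 11.8% in classical monocytes. Relative to classical monocytes, other AGMs held 4.66-fold (3.52 to 6.30) and 8.48-fold (4.93 to 16.0) more Fcgr4 and 4.42-fold (2.68 to 7.84) and 5.87-fold (2.66 to 16.1) more Fcgrt. These 2 of the 6 genes were called higher, where 9.64% of 5374 genes were, and 0 lower, where 3.74% were. Fcgr3 was 1.90-fold and 2.06-fold higher, Fcer1g 1.46-fold and 1.49-fold, and Fcgr2b at 1.14-fold (0.946 to 1.38) and 1.199-fold (0.899 to 1.63). Fcgr1 was not called, at 1.22-fold (0.998 to 1.502), which includes equal levels, and 2.247-fold (1.572 to 3.318).

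Among dendritic cells the inhibitory receptor and the chain separated the types. cDC2 held 4.41-fold (2.38 to 8.77) and 3.59-fold (2.28 to 5.83) the Fcgr2b of cDC1, and 4.67-fold (3.59 to 6.13) and 2.66-fold (2.13 to 3.35) the Fcer1g. These were the only 2 genes of the 6 with enough UMIs, where 7.46% of 456 genes were called higher and 4.39% lower. Set against all AGMs, cDC2 held less of the 4 activating genes: AGMs had 6.36-fold and 2.69-fold more Fcgr3, 31.6-fold (8.73 to 261) and 51.3-fold (9.17 to 2027) more Fcgr4, and 2.22-fold and 2.07-fold more Fcer1g. For Fcgr1, AGMs were 19.0-fold (5.23 to 157) above the 2 UMIs of female cDC2. All 4 were called higher, where 14.3% of 6296 genes were, and 0 lower, where 2.16% were. Fcgr2b was at 0.911-fold (0.697 to 1.21) and 0.523-fold (0.420 to 0.658), and Fcgrt at 1.10-fold and 1.79-fold.

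Neutrophils had Fcgr3 and Fcgr4 and lacked detectable Fcgr1. AGMs held 3.19-fold (1.61 to 7.40) and 2.71-fold (1.42 to 5.94) more Fcgr4 and 2.56-fold (1.57 to 4.50) and 1.44-fold (0.963 to 2.26) more Fcgr3. Fcgr1, Fcgr4, Fcgr2b and Fcgrt were called higher in AGMs, 4 of 6, where 37.3% of 6306 genes were called higher and 8.93% lower, so the count is read against a high background. NK cells differed from T cells in Fcer1g, 10.98-fold (10.2 to 11.8) and 11.4-fold (10.3 to 12.8), and in Fcgr3 as above, and both genes with enough UMIs were called higher, where 4.38% of 5005 genes were and 1.84% were called lower. Under the 1.2% mitochondrial ceiling, the 6 male NK cells left held 0 Fcgr3 UMIs (ratio 0, 0 to 121), which ended that call. Mast cells held 9.26-fold (7.60 to 11.2) and 14.3-fold (10.0 to 19.8) the Fcer1g of T cells, where 4.77% of 3962 genes were called higher and 16.9% lower, and no other gene had enough UMIs.

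The balance of activating to inhibitory receptors was then expressed as UMIs of Fcgr1, Fcgr3 and Fcgr4 per UMI of Fcgr2b, a ratio that is read between classes and not as an amount of protein. Other AGMs had the highest ratio among macrophages, at 4.68 (4.30 to 5.10) and 5.08 (4.59 to 5.62). It was 1.47 (1.17 to 1.85) and 0.871 (0.713 to 1.06) in Lyve1-high AGMs and 1.13 (0.807 to 1.59) and 1.19 (0.917 to 1.54) in Aldh1a2-high AGMs. Both subsets thus stood below other AGMs beyond counting error. Relative to other AGMs, Lyve1-high AGMs held more Fcgr2b and less Fcgr1 and Fcgr4, and Aldh1a2-high AGMs less Fcgr1, Fcgr3 and Fcgr4, in both libraries beyond counting error. The female Lyve1-high value moved with the gate, being 1.02 with 1 more marker, 0.946 by clusters and 2.09 under the 5% mitochondrial ceiling, in every case below other AGMs. Classical monocytes stood at 2.57 (2.11 to 3.15) and 2.12 (1.51 to 3.00), and nonclassical monocytes at 3.27 (2.01 to 5.54) and 2.15 (1.33 to 3.57), with overlapping intervals. Under the 1.2% mitochondrial ceiling the male nonclassical value turned to 0.875 (0.270 to 2.76, 7 activating UMIs). The ratio was below that of every AGM subset in cDC2, at 0.351 (0.200 to 0.593) and 0.311 (0.196 to 0.480), and in B cells, at 0.198 (0.114 to 0.326) and 0.414 (0.192 to 0.836), although the male B cell interval overlapped that of Lyve1-high AGMs. In cDC1 the ratio was 0.538 (0.182 to 1.45) and 0.320 (0.125 to 0.732). In B cells the activating UMIs were at the T cell background, so the B cell ratio is not read as expression of activating receptors. NK cells stood at 3.67 (2.67 to 5.15) and 5.38 (2.95 to 10.6), with 91.1% and 91.4% of the activating UMIs from Fcgr3. T cells gave 2.35 (1.37 to 4.19) and 3.43 (1.43 to 9.42), which overlapped NK cells in both libraries. Neutrophils held 24 activating against 4 inhibitory UMIs and 33 against 1.

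**Figure D3:**
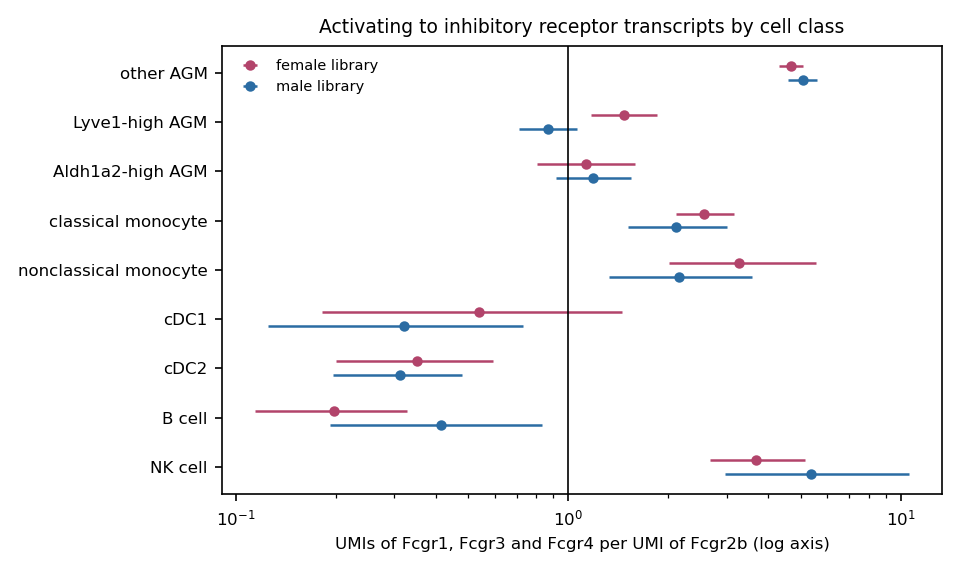
UMIs of the 3 activating receptors per UMI of Fcgr2b (log axis) by cell class and library, with exact binomial 95% intervals for counting error; the line marks equal numbers. Other AGMs lie at 4.68 and 5.08, both other macrophage subsets at 0.871 to 1.47, and cDC2 and B cells at 0.198 to 0.414.

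Single cells were also sorted by which of the 4 receptors they showed among 1000 UMIs, a depth at which a cell without a UMI may still express the gene. Of other AGMs, 49.9% and 49.4% showed activating receptors only, 13.1% and 9.95% an activating receptor together with Fcgr2b, 7.87% and 7.05% Fcgr2b only, and 29.1% and 33.6% none of them. Lyve1-high AGMs divided differently, with 23.5% and 22.7% activating only, 26.5% and 16.8% with both kinds, and 23.5% and 33.6% Fcgr2b only. In Aldh1a2-high AGMs 55.6% (44.1 to 66.6) and 65.0% (55.0 to 74.2) of cells showed none. Of classical monocytes, 53.6% and 58.3% showed none and 28.3% and 30.6% activating receptors only. Of nonclassical monocytes, 65.6% and 66.2% showed none and 23.4% and 20.0% activating receptors only. For cDC2 the Fcgr2b-only share was 15.9% (7 of 44 cells) and 40% (14 of 35). B cells showed Fcgr2b alone in 5.66% and 4.00% and activating receptors alone in 1.01% and 2.00%, against 1.40% and 1.28% of T cells. The draw left out 64 and 129 other AGMs and 9 and 20 Lyve1-high AGMs with under 1000 UMIs.

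**Figure D4:**
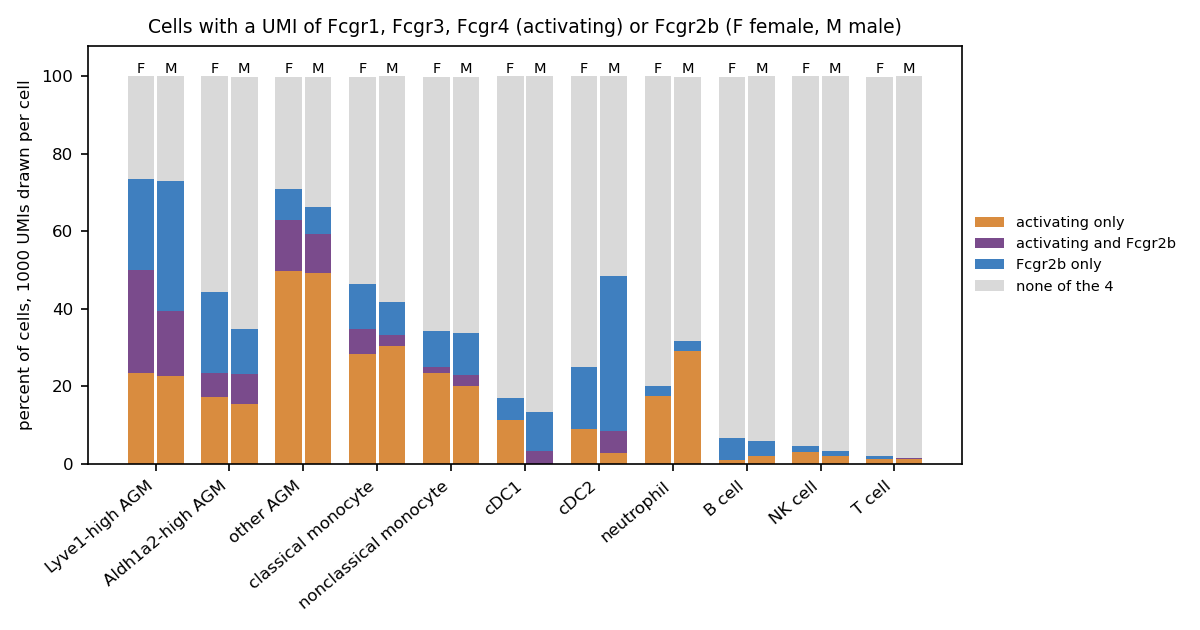
Percent of cells in each class (F female, M male library) with a UMI of Fcgr1, Fcgr3 or Fcgr4 only, of these and Fcgr2b, of Fcgr2b only, or of none, among 1000 UMIs drawn per cell; cells with fewer UMIs and mast cells are not shown. Activating only is the most frequent state of other AGMs (49.9% and 49.4%), and Fcgr2b-only cells are most frequent in Lyve1-high AGMs (23.5% and 33.6%) and male cDC2 (40%).

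Whether the receptors differed between the female and the male library was asked first over all AGMs. Fcgr1 stood at 185 CPM in the female and 189.9 CPM in the male library, a ratio of 0.972 (0.868 to 1.09), and Fcgr2b at 253 and 251 CPM, a ratio of 1.01 (0.912 to 1.11). Fcgr3 stood at 495 and 388 CPM, 1.27-fold (1.18 to 1.37), Fcgr4 at 308 and 274 CPM, 1.12-fold (1.03 to 1.23), and Fcer1g at 3517 and 3248 CPM, 1.08-fold (1.05 to 1.11). Fcgrt was lower in the female library, at 123 against 182 CPM, 0.679-fold (0.597 to 0.771). Under the 1.2% ceiling, with 69 and 128 AGMs left, this turned to 1.53-fold (0.902 to 2.57). None of the 6 passed 2-fold, where 1.56% of 7029 genes did, and the median ratio was 1.04 for the 6 and 0.962 for all genes. The ratios of the 6 genes in AGMs thus ran from 0.679 to 1.27.

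Subset makeup moved with the Fcgrt difference. Lyve1-high AGMs, the Fcgrt-rich subset, were 8.92% of female and 14.98% of male AGMs, and with both libraries weighted to the same makeup the Fcgrt ratio became 0.777 and that of Fcer1g 1.04. Within other AGMs the Fcgrt ratio was 0.921 (0.778 to 1.09), within Aldh1a2-high AGMs 0.873 (0.458 to 1.62), and within Lyve1-high AGMs 0.585 (0.464 to 0.735). T cells also had less Fcgrt in the female library, at 0.501-fold (0.251 to 0.999). Their level is not read as free RNA alone, as NK cells held 0.219-fold (0.064 to 0.607) and 0.431-fold (0.172 to 0.999) of it. Fcgr3 was higher in the female library in other AGMs, at 1.23-fold (1.14 to 1.34), and in Lyve1-high AGMs, at 1.57-fold (1.199 to 2.04), and within MHC class II high other AGMs at 1.14-fold (1.04 to 1.24). Low cells, which held more Fcgr3 in the female library, were 24.3% of female and 5.42% of male other AGMs. Fcgr3 stood at 0.870-fold (0.628 to 1.197) in Aldh1a2-high AGMs. In Lyve1-high AGMs Fcgr4 was 3.04-fold (1.82 to 5.20) higher in the female library with 47 against 24 UMIs, below the minimum of 50, and in a class where 4.21% of genes passed 2-fold. This became 0.954 (0.378 to 2.24) when classes were given to clusters. This difference therefore depended on how the subset was drawn. Markers of nonclassical monocytes, also rich in Fcgr4, moved with it, at 415 CPM in the female and 128 CPM in the male subset. Treml4 was at 0 in both. Other AGMs held 459.5 and 458.8 CPM of the same list, with Gngt2 giving 82.4% and 83.6% of these UMIs. Gngt2 gave 53.3% of them in the female Lyve1-high subset and Adgre4 55.8% in the male. The part of this list was not tested. Macrophage markers in this subset summed to 45690 and 33610 CPM. The part of either list in the Fcgr3 and Fcgrt ratios of Lyve1-high AGMs was not tested.

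Outside macrophages, 0 of 15 pairs of gene and class with at least 50 UMIs in either library passed 2-fold over the 8 other classes compared, with ratios from 0.575 to 1.80. Among all genes, 3.91% passed it in neutrophils and 15.4% in the few mast cells. Beyond counting error, Fcgr1 in classical monocytes was 1.66-fold (1.12 to 2.54) higher in the female library, where 1.29% of genes passed 2-fold, and Fcgr3 there 1.34-fold (1.01 to 1.80). Fcgr2b in cDC2 was lower in the female library, at 0.577-fold (0.407 to 0.813), where 3.53% of genes passed 2-fold, and Fcer1g in cDC1 at 0.575-fold (0.420 to 0.783), where 1.73% did. Macrophage markers moved with the latter, at 940.1 CPM in female and 2204 CPM in male cDC1, with 79.8% of those male UMIs and 55.5% of the male Fcer1g UMIs in 5 cells, and their part was not tested. In the endothelial cells Fcer1g was past 2-fold, at 358 against 901 CPM, 0.397-fold (0.255 to 0.606), with macrophage markers at 3085 and 4336 CPM. Fcer1g in NK cells was 1.09-fold (1.06 to 1.13) higher, where 0.602% did. With fewer than 50 UMIs, 3 pairs were past 2-fold and lower in the female library beyond counting error. These were Fcgr2b in cDC1, at 0.470-fold (0.221 to 0.954, 13 against 25 UMIs), Fcgrt in NK cells, at 0.255-fold (0.0671 to 0.847, 5 against 9 UMIs), and Fcgr4 in cDC1, at 0 against 5 UMIs. Most of these classes were small, with 45 and 35 cDC2 and 36 and 31 cDC1.

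**Figure D5:**
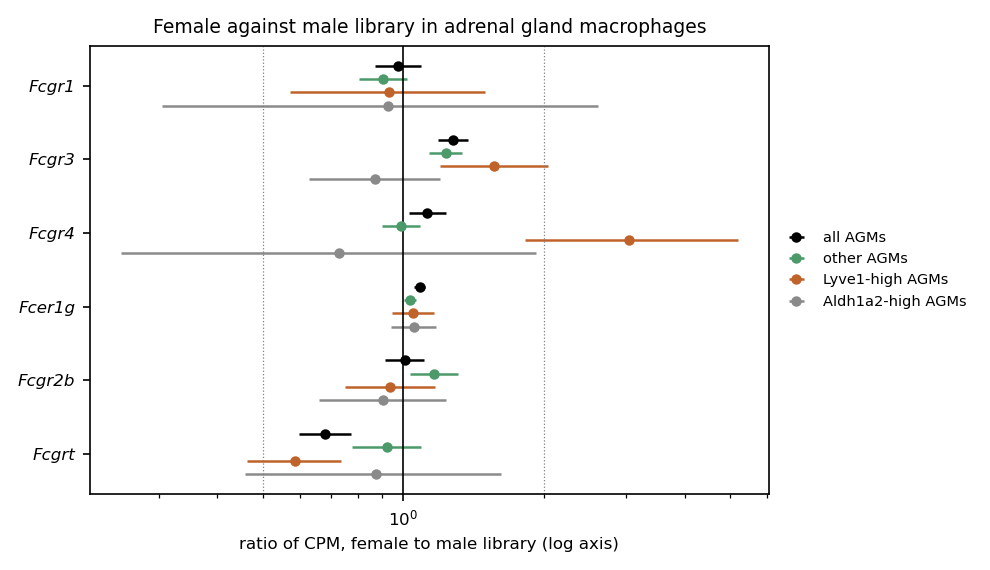
Ratio of CPM in the female to the male library (log axis) for each gene in all AGMs and in their 3 subsets, with exact conditional binomial 95% intervals for counting error; the solid line marks equal levels and the dotted lines 2-fold. No gene passes 2-fold in all AGMs, and Fcgr4 in Lyve1-high AGMs (3.04) is the only point beyond the line.

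The genes around the receptors were taken from 4 lists: activating chains, kinases and adaptors, brakes, other Fc-binding and Fc receptor-like genes, and the FcRn partner with recycling genes. None of their members passed 2-fold between the libraries in AGMs, where 1.56% of all genes did, with 0 of 14 activating genes with at least 50 UMIs, 0 of 6 brakes, 0 of 2 other Fc receptors and 0 of 5 recycling genes. The median ratios were 1.11, 0.979, 0.587 and 0.973 against 0.962 for all genes. By UMIs, Tyrobp, which encodes another activation-motif chain, led the first list in AGMs at 3430 and 2992 CPM, followed by the Src-family kinase Lyn (335 and 317 CPM) and the GTPase Rac2 (290.0 and 246 CPM). Among the brakes, Ptprc stood at 629 and 657 CPM, the phosphatase Ptpn6 at 237 and 204 CPM and the lipid phosphatase Inpp5d, which acts with the Fcgr2b motif, at 174 CPM in both. Fcrls led the other receptors at 125 and 188 CPM, followed by the cytosolic antibody receptor Trim21 (12.1 and 23.7 CPM) and Fcrl1 (11.2 and 8.83 CPM). B2m, the partner of Fcgrt, stood at 3173 and 3190 CPM, Snx5 at 366 and 376 CPM and Rab11a at 118 and 117 CPM.

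In Lyve1-high against other AGMs, 0 of 12 activating genes were called in either direction, where 4.71% of all genes were called higher and 3.89% lower. Dok2 was called higher and Dok1 lower among 6 brakes, Fcrls was called higher as the only tested other receptor, and Ehd1, a regulator of endosomal recycling, was called higher among 4 recycling genes. Ehd1 stood at 138 and 155 CPM in Lyve1-high and at 44.5 and 30.5 CPM in other AGMs. B2m was not called, at 2546 and 2791 CPM against 3415 and 3586. In Aldh1a2-high AGMs, Tyrobp and Gab2 were among the 3 of 12 activating genes called lower, where 10.3% of all genes were, and Pik3cd was called higher, where 5.2% were. Dok2 was called higher among 6 brakes, and B2m lower and Ehd1 higher among 4 recycling genes. Tyrobp stood at 1328 and 1341 CPM there against 3758 and 3526 in other AGMs, alongside the lower Fcer1g, while Syk, at 174 and 237 CPM against 96.6 and 103, was not called. Fcrls, an Fc receptor-like gene, was at 865.5 and 789 CPM in Aldh1a2-high AGMs against 24.9 and 36.4 in other AGMs. In nonclassical monocytes the kinase Fgr was the only 1 of 7 activating genes called, where 4.66% of all genes were called in each direction, at 512 and 472 CPM against 231 and 229 in classical monocytes.

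Genes with a similar distribution were sought by Pearson's r of log2(CPM + 10) over 26 sums of class and library with at least 20 cells, among 10432 genes, as a description of points that share libraries and depth. At 36 and 35 cells, the endothelial class, which held Fcgr2b and Fcgrt, met this size although it is not a leukocyte class. Fcgr1 was most like Ms4a6d (0.923), Trem2 (0.916) and Itgb5 (0.895), and Fcgr4 most like Lair1 (0.923), Slc11a1 (0.914) and Sat1 (0.897). Fcgr3 was most like Creg1 (0.904), Cstb (0.890) and Lilrb4a (0.888). Fcer1g was most like Tyrobp (0.916), Snx10 (0.850) and Fcgr3 itself (0.839). Fcgr2b was most like Stom (0.906), Sh3tc1 (0.905) and Lifr (0.897), and Fcgrt most like Ctnnd1 (0.919), Smagp (0.898) and Dab2 (0.895). Between the members, the closest pair was Fcgr2b and Fcgrt at 0.872, and the farthest Fcer1g and Fcgrt at 0.270. The 3 activating receptors stood at 0.671 to 0.709 with each other.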

How the data were processed

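The deposited values are raw UMI counts per gene and cell barcode. By the methods of the study, the authors made these counts with Cell Ranger 4.0.0 and removed noise barcodes with DropletUtils 1.4.3. The submitters' processing notes name the build mm10. The annotation was not given in the sources used here. The female library held 16218309 UMIs in 3963 barcodes and the male library 9512670 in 2685. Barcodes with at least 200 genes and at most 15% mitochondrial UMIs were kept; the ceiling of 1.2% in the study's methods leaves 327 and 359 barcodes, far fewer than the cells the study kept after it, so it cannot have been applied to this share of UMIs, and values under it are given as an alternative only. Scrublet's automatic threshold (scanpy 1.11.5) marked 1 and 7 barcodes as doublets, so the highest scores were removed at 0.8% per 1000 barcodes.

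A cell took the class with the highest score, the mean log2 level of its markers, each taken relative to and limited at its 90th percentile among cells with a UMI. At least 3 markers of that class and a score 1.25 times that of the next lineage were required, and 282 female and 184 male cells stayed without a class. Lyve1-high and Aldh1a2-high AGMs needed at least 3 markers of their own. Many cells lay near this limit: 26 female and 29 male AGMs held exactly 3 Lyve1-high markers, beside subsets of 77 and 139 cells, 18 and 26 AGMs held exactly 3 Aldh1a2-high markers, and 38 and 33 AGMs held 2 Lyve1-high markers. The names are rebuilt ones and may differ from those of the study. The genes, marker lists and pathway lists were chosen with earlier results of these data known, and the scoring was set after the cells had been seen.

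With 1 library per sex the comparisons carry no test and no p-value, as cells do not stand in for replicates. CPM carry exact Poisson intervals, shares Clopper-Pearson intervals and ratios exact conditional binomial intervals (scipy 1.17.1), all at 95%. Where a class held 0 UMIs, the level that 3 UMIs would give is the limit drawn, and the 95% interval reached above it. Ratios and calls were tested on simulated data with known folds, and the outcome is not given here. The genes named beside the 6 were those of the pathway lists past 2-fold between libraries, the 3 with most UMIs in AGMs of each list, and the 3 most similar in distribution. Genes of these lists called between classes, and those named beside such a call, were added after their values were seen, and some items are not reported here. Columns of other samples numbered 0.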

Additional observations from a re-analysis of the deposited data

Results flagged for a closer look

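A signal appeared in cells that are not leukocytes. Endothelial cells, 36 female and 35 male cells left in the CD45+ sort, held Fcgr2b at 808.7 CPM (female) and 731.5 CPM (male), above T cells (6.17 and 4.32 CPM) and not separated from Lyve1-high AGMs, which were at 0.747-fold (0.555 to 1.01) and 0.882-fold (0.669 to 1.17) of them. They held Fcgrt at 219.5 and 360.5 CPM, against 5.86 and 11.7 CPM in T cells. Their Fcgr2b was uneven: 11 cells of each library had a UMI, and 72.9% and 78.3% of the UMIs lay in 5 cells. For Fcgrt, 13 female and 19 male cells had a UMI. The macrophage markers summed to 3085 and 4336 CPM in this class, with all 10 markers present, and their part in these values was not tested.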

How the results depend on the processing

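No paired analysis was possible because each sex has 1 library and no test was run. The main values of the comparisons stayed within counting error when doublets were not removed (26 values), when cells under 1000 UMIs were left out (26) and when the MHC class II boundary was 5 or 20 UMIs per 1000 (2 each), while 6, 2, 1 and 1 of the other values moved. Of these other values, 17 moved under the 5% mitochondrial ceiling and 11 with 1 more marker required. With classes given to clusters 27 moved and 1 reversed, and under the 1.2% ceiling 136 moved and 5 reversed. A mitochondrial ceiling of 5% gave a female activating to inhibitory ratio of 2.09 in Lyve1-high AGMs, a female to male ratio of 0.787 for Fcgrt in AGMs, and female Lyve1-high to other AGM ratios of 0.939 for Fcgr4 and 3.45 for Fcgrt. Requiring 1 more marker gave 1.02 for the first of these, and 0.221 (female) and 0.113 (male) for Fcgr4 in Lyve1-high against other AGMs. Classes given to clusters, which held no dendritic cell class, gave 0.946 and, in the female library, 0.129 for the same ratios, 0.0196 for Fcgr1 in female Aldh1a2-high against other AGMs, 5.83 for Fcgr4 in female nonclassical against classical monocytes, and a reversed female to male ratio of 0.954 for Fcgr4 in Lyve1-high AGMs. Equal subset makeup gave female to male ratios of 1.04 for Fcer1g and 0.777 for Fcgrt in AGMs. Genes past the fold between libraries in AGMs numbered 110 of 7029, 34 of 2523 with at least 200 UMIs, and 479 at 1.5-fold.

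The ceiling of 1.2% left 3 female and 0 male Lyve1-high AGMs, 42 and 79 other AGMs and 10 and 6 NK cells, and most values moved. Activating to inhibitory ratios were 2.20 in female Lyve1-high AGMs, 5.84 in male other AGMs and, reversed, 0.875 in male nonclassical monocytes. Fcgr3 stood at 25.9 CPM in female NK cells, and Fcgr1 at 155 and 114 CPM in AGMs. Female to male ratios in AGMs turned to 1.36 for Fcgr1, 0.996 for Fcer1g and 1.53 for Fcgrt, and that of Fcgr2b was 1.23. Female Lyve1-high to other AGM ratios were 0 for Fcgr4 (0 UMIs), 1.85 for Fcgr2b and 2.78 for Fcgrt. Fcgr1 in MHC class II low against high cells turned to 1.56 and 2.59. In male nonclassical against classical monocytes, Fcgr4 was at 2.02 and Fcgrt, reversed, at 0.808. In the male library Fcer1g in B against T cells reversed to 1.51, and in NK against T cells Fcgr3 reversed to 0 (0 UMIs) and Fcgrt to 3.10. Beyond the fewer cells, the cause was not tested. At these depths, levels resting on under 10 UMIs limit what can be ordered.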
